A study of Mus musculus with 18 samples.

Results

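The glucocorticoid receptor and 8 of its classical target genes were examined in kidney RNA of 6-wk-old offspring of dams fed a low-protein (LP) or a normal-protein (NP) diet. The 9 genes were taken as a named list, 9 of the 78239 genes listed for each mouse. The 8 targets were *Fkbp5*, *Tsc22d3*, *Sgk1*, *Zbtb16*, *Klf9*, *Dusp1*, *Errfi1*, and *Cdkn1a*, and the receptor was *Nr3c1*. The list was drawn up because levels of these genes had been seen to differ between single libraries, so differences between libraries are described here without a test. Every member had at least 10 counts in every library, as did 12665 genes in all.

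RNA was sequenced as 1 library for each of 18 mice. There were 5 males and 5 females in the LP group, and 5 males and 3 females in the NP group. The mice were outbred wild-type CD-1 animals. LP dams received 8% protein and NP dams 18% protein from mating through gestation and lactation, and all offspring were weaned at 3 wk onto the NP diet, so the 4 groups differed in maternal diet and sex and not in their own diet after weaning. Filtration was measured with FITC-sinistrin in conscious adult mice of both diets, after sedation with isoflurane to fit the device. All mice received injections of cationic ferritin for imaging and tribromoethanol before perfusion. Males were collected 90 min and females 24 h after the last injection, so sex and collection time cannot be told apart in any comparison of males with females. Litters were not given in the labels. The published account gives fewer litters of adult mice than there were mice in each of the larger groups. LP males, NP males, and LP females thus each held littermates, and which mice these were is not known. NP females, and males and females of the same diet, may also have shared litters. The adjusted p-values below therefore measure the spread between these mice, not between litters.

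Glucocorticoids, chiefly corticosterone in mice, cross the cell membrane and bind a receptor held in the cytoplasm by HSP90 and its co-chaperones. The bound receptor moves to the nucleus, where it binds response elements in DNA and raises transcription of genes that dampen inflammation, restrain growth signaling, and mobilize fuel. In the kidney, *Hsd11b2* inactivates corticosterone in the aldosterone-sensitive distal nephron, and some target genes there, *Sgk1* among them, also respond to aldosterone through the mineralocorticoid receptor.

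The response element is an inverted repeat of the hexamer AGAACA with a spacer of 3 bases. The spelling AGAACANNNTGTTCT, which reads the same on both strands, occurred within 5 kb on either side of the canonical start site of 14 of 11801 expressed protein-coding genes (0.119%), and *Sgk1* was the only target of the 8 among them. A shorter spelling, GNACANNNTGTNC, also the same on both strands and contained in every match to the longer one, occurred in the same window of 15.8% of genes and of 4 of the 8 targets. The matches of the targets are printed below with the motif in capitals, since *Sgk1* and *Fkbp5* lead the results that follow. Positions are in GRCm39 and each sequence is given 5′ to 3′ on the strand of its gene, with the position of the center of the motif from the canonical start site. All 4 lie in introns of their genes in GENCODE vM39, upstream of the canonical start in *Sgk1* and *Dusp1*, whose longer transcripts begin further away.
*Sgk1*, chr10:21869592-21869622, + strand, position -958: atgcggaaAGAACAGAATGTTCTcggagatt
*Fkbp5*, chr17:28703919-28703947, - strand, position 1219: ggggctcgGGACAGGGTGTACagcgcttg
*Dusp1*, chr17:26728453-26728481, - strand, position -974: tgtgatgaGTACAGTTTGTCCcacagagt
*Cdkn1a*, chr17:29313666-29313694, + strand, position 942: tttggcggGCACAGTATGTTCccagggaa

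These letters are a description of sequence, and no binding was measured in these samples. In the RefSeq promoters of mouse (GRCm38.p6, 250 bases before to 50 after a start), 7 of the 8 targets had an entry. A gene could have several promoters and was counted once. The hexamer AGAACA, on either strand, occurred in a promoter of 21.3% of 27025 genes and, of the targets, of *Sgk1* and *Tsc22d3*. The long spelling occurred in a promoter of 0.0111% of these genes, and *Sgk1* was the only target with it. The promoter of *Sgk1* that held it is printed with each hexamer in capitals, beside that of *Tsc22d3*, which held a single hexamer.
*Sgk1*, RefSeq promoter, GRCm38.p6 chr10:21993640-21993939, + strand: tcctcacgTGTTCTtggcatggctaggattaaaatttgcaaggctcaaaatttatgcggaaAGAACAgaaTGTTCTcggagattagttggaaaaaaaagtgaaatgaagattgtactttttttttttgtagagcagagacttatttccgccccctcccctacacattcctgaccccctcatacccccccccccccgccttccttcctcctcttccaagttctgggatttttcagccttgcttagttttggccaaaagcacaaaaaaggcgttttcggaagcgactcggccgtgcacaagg
*Tsc22d3*, RefSeq promoter, GRCm38.p6 chrX:140600473-140600772, - strand: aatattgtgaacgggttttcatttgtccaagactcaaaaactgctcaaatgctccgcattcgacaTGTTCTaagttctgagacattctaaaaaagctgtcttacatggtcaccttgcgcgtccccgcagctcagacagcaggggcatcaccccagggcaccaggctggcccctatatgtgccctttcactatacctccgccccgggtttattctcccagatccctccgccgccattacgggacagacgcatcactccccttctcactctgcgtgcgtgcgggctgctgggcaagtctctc

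The number of reads assigned to genes ranged from 14050486 to 23562411 over the libraries (median 16747971). Defining genes of kidney tubules were present in every library, with thick limb and distal tubule markers summing to at least 2814 CPM (counts scaled to the library total), and 2 genes for the last steps of adrenal steroid synthesis, *Cyp11b1* and *Cyp11b2*, had no reads in any of them. When libraries were clustered on all 12665 genes, the topmost split had LP female 1, LP female 2, and NP female 3 on its smaller side and the other 15 libraries on the other. The same 3 libraries were set apart when the 9 members were left out of the clustering, which removed few of the genes and could change little. Reads of mitochondrial genes made up 11.3%, 10.4%, and 16.5% of the counted reads of these 3 libraries, in that order, and between 5.47% and 8.92% in the others. NP female 3 also had 12.6% of its reads mapped to several places, against at most 8.91% elsewhere. The part of RNA quality in the results was not tested, and comparisons of groups that include these libraries are also given without them.

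Levels are given as CPM after TMM scaling, which corrects library totals for differences in composition. Per kb of exon, NP males had *Errfi1* at 143 ± 34.9 CPM per kb (SD, n = 5), far above the other members. *Fkbp5* followed at 39.4 ± 9.63, *Klf9* at 32.7 ± 9.24, *Dusp1* at 20.7 ± 9.88, *Tsc22d3* at 15.2 ± 2.04, and *Sgk1* at 15.01 ± 2.66 CPM per kb. The receptor *Nr3c1* stood at 10.1 ± 1.29 CPM per kb, above *Zbtb16* at 2.81 ± 2.20 and *Cdkn1a* at 2.58 ± 1.08. The ranges of neighbors in this order overlapped among NP males at every step except from *Errfi1* to *Fkbp5* and from *Nr3c1* to *Zbtb16*. Reads were counted without regard to strand, and genes on the opposite strand share 14.5% of the exonic bases of *Sgk1*, 14.8% of *Nr3c1*, and 12.5% of *Cdkn1a*, where reads cannot be assigned to either strand. For the other members this share was at most 8.18%.

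**Figure D1:**
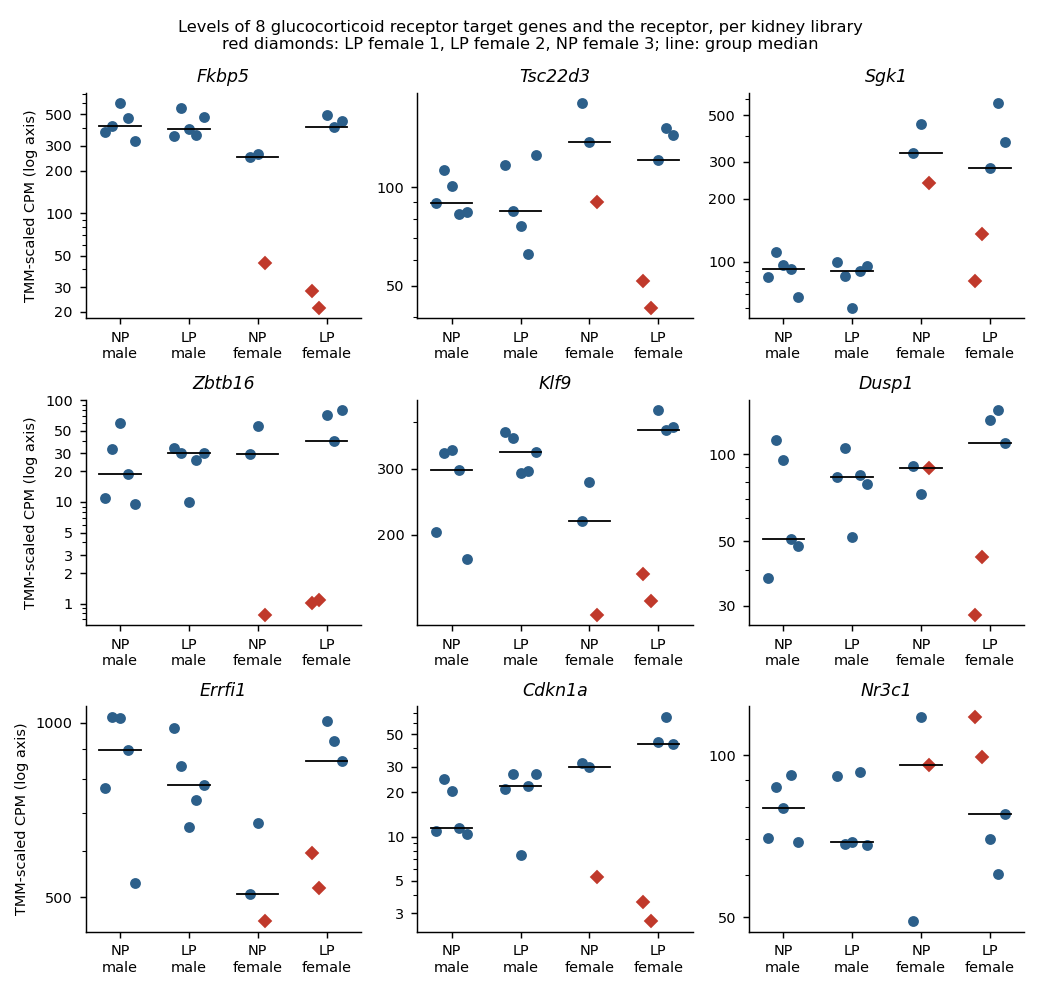
TMM-scaled CPM (log axis) of the 9 genes in each of 18 kidney libraries, by group, with a line at the group median and red diamonds for LP female 1, LP female 2, and NP female 3. These 3 libraries lie below the other 5 females for 6 of the 9 genes, against 11.7% of the 13510 genes tested in females. The 9 genes were chosen with such differences known. Females lie above most males for *Sgk1*.

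*Fkbp5* encodes FKBP51, an HSP90 co-chaperone that lowers the affinity of the receptor for its ligand and is itself induced by the bound receptor. The gene lies at chr17:28618058-28737521 on the - strand. *Fkbp5* stood at 349, 551, 395, 355, and 476 CPM in LP males 1 to 5 and at 378, 412, 602, 468, and 323 CPM in NP males 1 to 5. The male groups overlapped over nearly their whole range. LP females 1 to 5 had 28.2, 21.4, 493.1, 408, and 447 CPM, and NP females 1 to 3 had 248, 262, and 44.5 CPM. The 3 low values belonged to the libraries that clustering set apart, and the lowest of the other 5 females was 5.57-fold above the highest of these 3. Among 13510 genes tested in females, only 42 had a wider gap of this kind downward. In bulk tissue, fewer cells of a type and less RNA per cell cannot be told apart for this or any other member.

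*Zbtb16* encodes PLZF, a zinc-finger transcriptional repressor. It lies at chr9:48563141-48748664 on the - strand and shares no exonic bases with another gene. *Zbtb16* stood at 33.9, 30.0, 9.94, 25.7, and 30.1 CPM in LP males and at 10.97, 33.4, 59.3, 18.7, and 9.47 CPM in NP males. LP females had 1.01, 1.09, 71.2, 39.7, and 80.7 CPM, and NP females had 29.9, 56.0, and 0.779 CPM. The low female values rested on 22, 22, and 11 reads, whereas the other 15 libraries had between 157 and 1999 reads. The lowest of the other 5 females was 27.3-fold above the highest of the 3, the third widest downward gap among 13510 genes. *Zbtb16* also varied the most of the members among males, with an SD of 0.91 on the log2 scale, larger than that of 99.4% of genes.

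*Cdkn1a* encodes p21, an inhibitor of cyclin-dependent kinases that is also a p53 target. It lies at chr17:29309936-29319701 on the + strand. *Cdkn1a* stood at 21.2, 26.5, 7.54, 22.0, and 26.6 CPM in LP males and at 10.9, 24.6, 20.5, 11.5, and 10.4 CPM in NP males. LP females had 3.55, 2.63, 44.0, 65.9, and 43.0 CPM, and NP females had 31.9, 29.9, and 5.31 CPM. The same 3 females were low, with a gap of 5.63-fold to the next female, while every other female lay above every male. Of other p53 targets, 5 of 9 tested lay below in the same 3 libraries, against 11.7% of the 13510 genes. They were *Mdm2*, *Trp53inp1*, *Sesn2*, *Aen*, and *Gdf15*, and for *Mdm2* the margin was narrow, with at most 37.4 CPM in the 3 libraries and at least 37.6 CPM in the other females.

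*Tsc22d3* encodes GILZ, a leucine zipper protein that restrains inflammatory transcription factors, and lies at chrX:139440091-139501408 on the - strand. *Tsc22d3* stood at 117, 84.7, 76.2, 62.7, and 125 CPM in LP males and at 89.8, 113, 101, 83.1, and 84.0 CPM in NP males. LP females had 51.5, 42.7, 122, 153, and 145 CPM, and NP females had 182, 138, and 90.04 CPM. The 3 set-apart females were again the lowest of their sex, but NP female 3 fell inside the male range. *Klf9*, at chr19:23118187-23148497 on the + strand, encodes a Krüppel-like transcription factor. It stood at 377, 364, 292, 296, and 333 CPM in LP males, and at 203, 331, 337, 299, and 172 CPM in NP males. LP females had 157, 133, 432, 381, and 387 CPM of *Klf9*, and NP females had 217, 277, and 123 CPM. All 3 set-apart libraries lay below every male for *Klf9*, though by less than for *Fkbp5*.

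*Sgk1* encodes serum/glucocorticoid regulated kinase 1, which keeps the epithelial sodium channel at the cell surface in the distal nephron. The gene lies at chr10:21758083-21875802 on the + strand. *Sgk1* stood at 99.5, 85.2, 60.1, 90.3, and 94.7 CPM in LP males and at 84.1, 111, 96.2, 92.3, and 67.6 CPM in NP males. LP females had 81.0, 135, 279, 572, and 372 CPM, and NP females had 331, 453, and 236 CPM. The 3 set-apart libraries were the lowest females, yet LP female 2 and NP female 3 still exceeded every male. All females other than LP female 1 thus had more *Sgk1* than any male.

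*Dusp1* and *Errfi1* encode brakes on growth signaling. *Dusp1*, at chr17:26724564-26781102 on the - strand, encodes a phosphatase that inactivates MAP kinases and is also an immediate early gene. It stood at 83.1, 105, 51.6, 84.5, and 79.0 CPM in LP males, and at 37.3, 112, 95.6, 50.9, and 48.2 CPM in NP males. LP females had 28.0, 44.1, 131, 142, and 109.7 CPM of *Dusp1*, and NP females had 90.9, 72.8, and 89.5 CPM. LP female 1 and LP female 2 were the lowest females for *Dusp1*, but NP female 3 lay among the others. *Errfi1*, at chr4:150938376-150955402 on the + strand, encodes MIG6, an inhibitor of the EGF receptor. It stood at 979, 842, 662, 737, and 781 CPM in LP males, and at 771, 1025, 1019, 898, and 529 CPM in NP males. LP females had 597, 518, 1009, 932, and 858 CPM of *Errfi1*, and NP females had 507, 671, and 454 CPM. The set-apart libraries overlapped the other females for *Errfi1*, the member with the smallest SD among females (0.38 on the log2 scale).

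*Nr3c1*, the receptor itself, lies at chr18:39543598-39652474 on the - strand. It stood at 91.4, 68.5, 69.0, 93.0, and 68.3 CPM in LP males and at 70.3, 87.3, 79.7, 92.1, and 68.9 CPM in NP males. LP females had 118, 99.2, 69.8, 60.1, and 77.8 CPM, and NP females had 49.2, 118, and 96.1 CPM. The receptor was not low in the libraries in which its targets were low. LP female 1 had the highest *Nr3c1* of all 18 libraries, and the 3 set-apart values overlapped the other 5 females.

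Counted over the list, LP female 1, LP female 2, and NP female 3 all lay below the other 5 females for 6 of the 9 members (*Fkbp5*, *Tsc22d3*, *Sgk1*, *Zbtb16*, *Klf9*, and *Cdkn1a*) and above them for none. Over the 13510 genes tested in females, 11.7% lay below in this way and 12.1% above. The members were chosen with such differences known, so this count describes them and tests nothing. The median SD of the members was 0.86 on the log2 scale among 8 females and 0.32 among 10 males, against medians of 0.31 and 0.23 over the 12665 genes. Among females, the SD of *Zbtb16* (2.93), *Fkbp5* (2.04), and *Cdkn1a* (1.91) exceeded that of 99.95%, 99.7%, and 99.6% of genes, and that of *Nr3c1* (0.49) exceeded that of 79.9%.

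Other genes known to respond to glucocorticoids were followed in a list of 32, of which 29 could be compared in females. In the 3 set-apart libraries, 17 of the 29 lay below the other 5 females and 0 above. Among the 17 were *Pdk4*, which spares glucose by inhibiting pyruvate dehydrogenase, *Angptl4*, an inhibitor of lipoprotein lipase, *Pck1*, the gluconeogenic enzyme, and the metallothionein *Mt1*. *Angptl4* was between 6.51 and 28.8 CPM in the 3 libraries, 98.6 to 229 CPM in the other 5 females, and 63.1 to 177 CPM in males. *Map3k6* was between 0.794 and 2.62 CPM in the 3 libraries and at least 10.3 CPM in the other females. *Pdk4* was between 12.9 and 50.2 CPM in the 3 libraries and 51.8 to 182 CPM in the other females, and its male range of 21.1 to 53.2 CPM overlapped that of the 3. *Tat*, a hepatic target, had no reads in any library.

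Genes outside the glucocorticoid response were low in the same libraries. All 17 of the 17 interferon-stimulated genes compared lay below the other 5 females in the 3 set-apart libraries. Their summed level was 272, 366, and 334 CPM in LP female 1, LP female 2, and NP female 3, and 1317 to 4535 CPM in the other 15 libraries. *Ifit1*, which binds viral RNA, was between 4.19 and 5.56 CPM in the 3 libraries and at least 115 CPM elsewhere. The summed level of the other glucocorticoid-responsive genes was 5279, 5175, and 6195 CPM in the 3 libraries, 8449 to 13084 CPM in the other 5 females, and 3859 to 6801 CPM in males, so for that sum the 3 libraries lay inside the male range. *Pck1* alone made up 3874 to 4591 CPM of it in the 3 libraries. Without *Pck1*, the sum was 1128 to 1604 CPM in the 3 libraries and 1238 to 2192 CPM in males. In the 3 libraries, *Angptl4*, *Map3k6*, *Lpin1*, *Rhob*, *Gadd45b*, *Mertk*, and *Nfkbia* lay below every male. *Nfkbia*, an inhibitor of NF-κB, had at most 17.9 CPM there and at least 24.9 CPM in males. *Fam107a* (at least 117.6 CPM, against at most 84.2 CPM in males) and *Cdkn1c* (13.6 against 12.1 CPM) lay above every male. The other genes of the list that were compared overlapped the males. Of immediate early genes, 3 of 10 lay below (*Jun*, *Junb*, and *Btg2*), and of 15 circadian clock genes 0 lay below and 2 above (*Per3* and *Bhlhe41*).

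**Figure D2:**
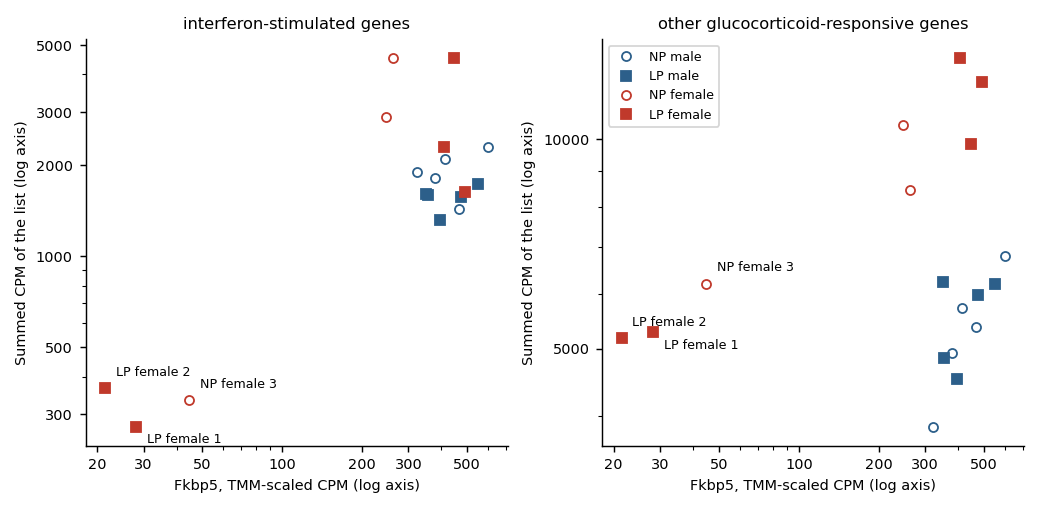
*Fkbp5* (TMM-scaled CPM, log axis) against the summed CPM (log axis) of 18 interferon-stimulated genes (left) and of 32 other glucocorticoid-responsive genes (right), 1 point per library, with open circles for NP and filled squares for LP mice, and blue for males and red for females. LP female 1, LP female 2, and NP female 3 are low on both axes at left, while at right their sums of 5175 to 6195 CPM, mostly *Pck1*, lie inside the male range.

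Markers of other cells were read in the same libraries. Proximal tubule markers summed to 10620, 13692, and 17883 CPM in LP female 1, LP female 2, and NP female 3, and to 18458 CPM or more in every other library, with 1 of 6 markers, *Lrp2*, below all other females. Of these sums, *Kap* held 1756 to 9394 CPM in the 3 libraries and 8060 to 18810 CPM in the other females. In males *Kap* held 21780 to 42580 CPM. Leukocyte markers summed to 57.7, 61.6, and 54.7 CPM in the 3 libraries and 22.3 to 56.4 CPM in the others, with *C1qa* and *C1qb* of 4 markers compared above all other females. Fat markers summed to 9.08, 12.4, and 205 CPM in the 3 libraries and 4.31 to 250.1 CPM in the others. Of tubular injury genes, *Havcr1* and *Vcam1* lay below the other females, 2 of 6 compared. *Havcr1*, which encodes KIM-1, was between 1.61 and 5.31 CPM in the 3 libraries, 97.4 to 316 CPM in the other females, and 4.18 to 44.99 CPM in males. Podocyte markers summed to 382, 246, and 258 CPM in the 3 libraries and 370.4 to 511 CPM in the other females, with *Nphs1* and *Wt1* of 5 below. Endothelial markers summed to 199, 226, and 79.8 CPM, against 153 to 303 CPM, with *Cdh5* of 5 below. Collecting duct markers summed to 669, 595, and 1032 CPM, against 504 to 827 CPM, with *Slc26a4* of 6 below and *Slc4a1* above. NP female 3 thus had the lowest endothelial and the highest collecting duct sum of the females. *Slc12a1* of 6 thick limb and distal tubule markers lay below, and of blood markers 0 of 3 lay below or above. Adrenal cortex markers, which a kidney piece could carry from the adjacent gland, summed to between 0.992 and 4.76 CPM in all libraries. The part of these cell types in the levels of the target genes was not tested.

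Among proteins that handle the hormone and its receptor, 6 of 16 lay below in the 3 set-apart libraries and 0 above. They were the HSP90 genes *Hsp90aa1* and *Hsp90ab1*, the chaperone *Hspa8*, the co-chaperone *Stip1*, *H6pd*, which supplies the cofactor of 11β-HSD1, and *Serpina6*, the corticosteroid-binding globulin. *Serpina6* was between 6.86 and 22.2 CPM in the 3 libraries, 23.2 to 165 CPM in the other 5 females, and at most 1.10 CPM in males. *Nr3c2*, the mineralocorticoid receptor, overlapped between the 3 libraries and the other females, as did *Hsd11b2*.

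Levels of the members were also compared among males, none of whose libraries was on the smaller side of the topmost split. NP male 5 was in the lowest 3 of the 10 males for 7 of the 8 targets, LP male 3 for 6, and NP male 1 for 5. NP male 2 and NP male 3 were each in the highest 3 for 6 of the 8. After group means were removed, Pearson's r between 2 targets over the 10 males ranged from 0.23 to 0.94 over 28 pairs, with a median of 0.65, and 20 pairs exceeded 0.5. Over all pairs of the 12665 genes the median was -0.0009, and 15.6% of pairs exceeded 0.5. The highest was that of *Klf9* with *Errfi1* (r = 0.94, Spearman's rho = 0.94, r = 0.94 without the 2 males farthest from the median of *Klf9*). *Zbtb16* with *Dusp1* had r = 0.88, rho = 0.86, and r = 0.86 without the 2 farthest males. *Fkbp5* with *Tsc22d3* was the lowest pair, at r = 0.23. Some pairs of *Fkbp5* with other targets rested in part on the 2 farthest males, without which r fell from 0.62 to 0.34 with *Zbtb16*, from 0.49 to 0.14 with *Dusp1*, and from 0.43 to 0.21 with *Cdkn1a*. For *Fkbp5*, r fell less with *Klf9* (0.666 to 0.582) and *Errfi1* (0.535 to 0.448). It rose with *Tsc22d3* (0.233 to 0.35) and *Sgk1* (0.307 to 0.344). *Nr3c1* was less closely tied to its targets, with r from -0.15 to 0.60 and a median of 0.40. All members come from the same library in each mouse and share its depth and scaling, so these values describe the 10 males. No such value is given for females, whose libraries fell into separate clusters.

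**Figure D3:**
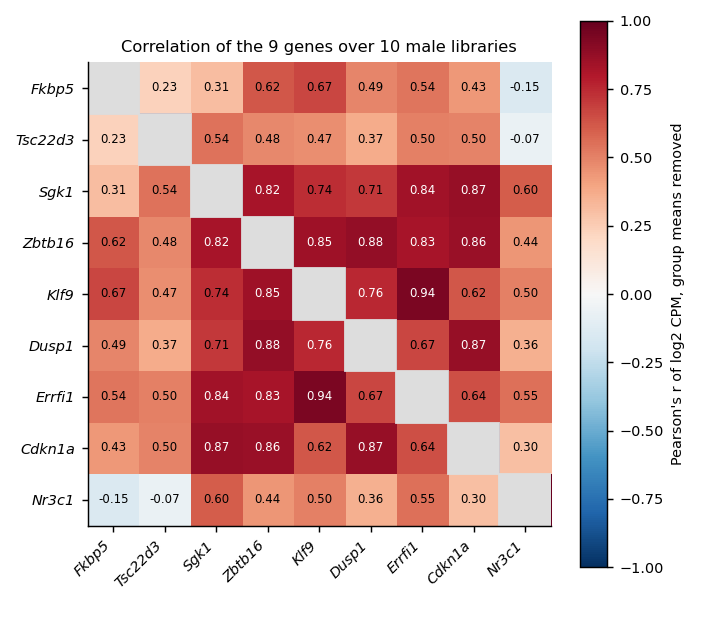
Pearson's r between the log2 CPM of each pair of the 9 genes over 10 male libraries, with group means removed (color scale from -1 to 1). All 28 pairs of targets are positive, and the row of *Nr3c1* holds the 2 negative values, with *Fkbp5* (-0.15) and *Tsc22d3* (-0.07).

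The genes whose pattern was most like the mean of the 8 targets were ranked by Pearson's r over the 18 libraries, with group means removed, among the 12665 genes. They were *Herpud1* (r = 0.98), *Retreg1*, *Ptpn1*, *Cxcl1*, *Ulk1*, *Steap4*, *Foxo3*, *Lpin1*, *Klf13*, and *Angptl4* (r = 0.96). Without the 3 set-apart libraries the values were lower. Over the other 15 libraries the same genes had r between 0.73 (*Angptl4*) and 0.93 (*Klf13*), and over the 10 males between 0.84 (*Steap4*) and 0.96 (*Klf13*). When the ranking itself was made over those 15 libraries, it was led by *Plk3*, *Ccdc71l*, and *Klf13* (r = 0.93 each), and 4 of the 10 genes named above were in its first 10 (*Herpud1*, *Retreg1*, *Cxcl1*, and *Klf13*). For single members, the nearest gene was *B4galt1* for *Fkbp5*, *Herpud1* for *Tsc22d3*, *Ghitm* for *Sgk1*, *Il2rg* for *Zbtb16*, *Ell2* for *Klf9*, *Zfp36* for *Dusp1*, *Rad54l2* for *Errfi1*, *Stat3* for *Cdkn1a*, and *Bid* for *Nr3c1*, with r between 0.92 and 0.99 over 18 libraries. Over the other 15 libraries, *Il2rg* with *Zbtb16* (r = 0.94), *Rad54l2* with *Errfi1* (0.94), *Ell2* with *Klf9* (0.93), and *Bid* with *Nr3c1* (0.92) remained above 0.9.

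Maternal diet was compared within each sex, the question for which the mice were bred. Groups were compared with edgeR's quasi-likelihood test, and p-values were adjusted over all genes tested, not over the list. In males, 0 of the 9 members had an adjusted p under 0.05, as did 5 of 13181 genes (0.0379%). The largest differences were those of *Cdkn1a*, with a log2 fold change of 0.41 (SE 0.33), and *Klf9*, with 0.31 (SE 0.18), LP over NP, both with an adjusted p of 0.9996. None of the members reached an unadjusted p under 0.05 in males, a level that 3.84% of genes passed. DESeq2's Wald test called 0 members too, and 19 of 12915 genes. LP and NP males overlapped for all 9 members, as they did for all but 0.668% of genes. Their diet difference was estimated most closely for *Nr3c1* (-0.03, SE 0.13) and least for *Zbtb16* (-0.03, SE 0.47).

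In females, 0 of the 9 members passed either, nor did any of 13510 genes (0%), and 0 members had an unadjusted p under 0.05, against 4.17% of genes. DESeq2's Wald test called 0 members and 9 of 13501 genes. The median log2 fold change of the 8 targets was 0.47, LP over NP, against -0.01 over all genes, but with LP female 1, LP female 2, and NP female 3 included the errors were wide. That median was 0.094 without NP female 3 alone and 0.66 without all 3. *Fkbp5* had a log2 fold change of 0.60 (SE 1.04), *Zbtb16* 0.42 (SE 1.41), *Cdkn1a* 0.51 (SE 1.01), and *Errfi1* 0.53 (SE 0.27, unadjusted p = 0.0771, adjusted p = 0.886). LP and NP females overlapped for all 9 members, as they did for all but 2.98% of genes. Of the other lists, 0 genes were called by diet in either sex. In the other glucocorticoid-responsive genes, the genes nearest to a call in males were the metallothionein *Mt2* (log2 fold change 0.86, SE 0.34) and *Txnip* (0.64, SE 0.25), both with an adjusted p of 0.9996.

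Without the 3 set-apart libraries, 3 LP females were left against 2 NP females. The adjusted p of the members was then between 0.972 and 0.989, so 0 were called, and 1 of 14183 genes was (0.00705%). The errors were smaller, and 5 members had an unadjusted p under 0.05, all higher in LP females. Of all genes, 4.44% reached that level, and 2.23% in that direction. The members were chosen with differences between libraries known, and the 3 libraries were set apart from these same data. The targets also varied together among males, so the 5 are not separate results, and the count is no test of diet. *Fkbp5* had a log2 fold change of 0.83 (SE 0.16, unadjusted p = 0.00119), with 408 to 493.1 CPM in LP females 3 to 5 and 248 and 262 CPM in NP females 1 and 2. *Klf9* had 0.70 (SE 0.17), *Cdkn1a* 0.73 (SE 0.23), *Errfi1* 0.67 (SE 0.19), and *Dusp1* 0.65 (SE 0.18). For these 5 members the LP values all lay above the NP values, as they did for 10.3% of genes with these 3 and 2 libraries. Of the others, *Tsc22d3* (-0.19, SE 0.18), *Sgk1* (0.06, SE 0.31), *Zbtb16* (0.58, SE 0.37), and *Nr3c1* (-0.26, SE 0.33) had unadjusted p-values above 0.05.

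An interaction term over the 4 groups asked whether the diet difference was the same in males and females. It passed for 0 of the 9 members, as it did for 2 of 12665 genes (0.0158%, or 0.0079% with the larger difference in females), and 0 members had an unadjusted p under 0.05, against 4.02% of genes. The largest estimate was that of *Fkbp5*, 0.63 (SE 0.99) more in females, and the smallest unadjusted p that of *Errfi1*, 0.61 (SE 0.31, unadjusted p = 0.0654, adjusted p = 0.977). Without the 3 set-apart libraries 0 members passed again, and *Fkbp5* (0.85, SE 0.29, unadjusted p = 0.00915) and *Errfi1* (0.75, SE 0.29, unadjusted p = 0.0192) had an adjusted p of 0.999. An unadjusted p under 0.05 was reached by 3.37% of genes there, and by 1.58% in the direction of these 2 members. The members and the libraries left out were chosen in the same way here, so these 2 values describe the members.

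**Figure D4:**
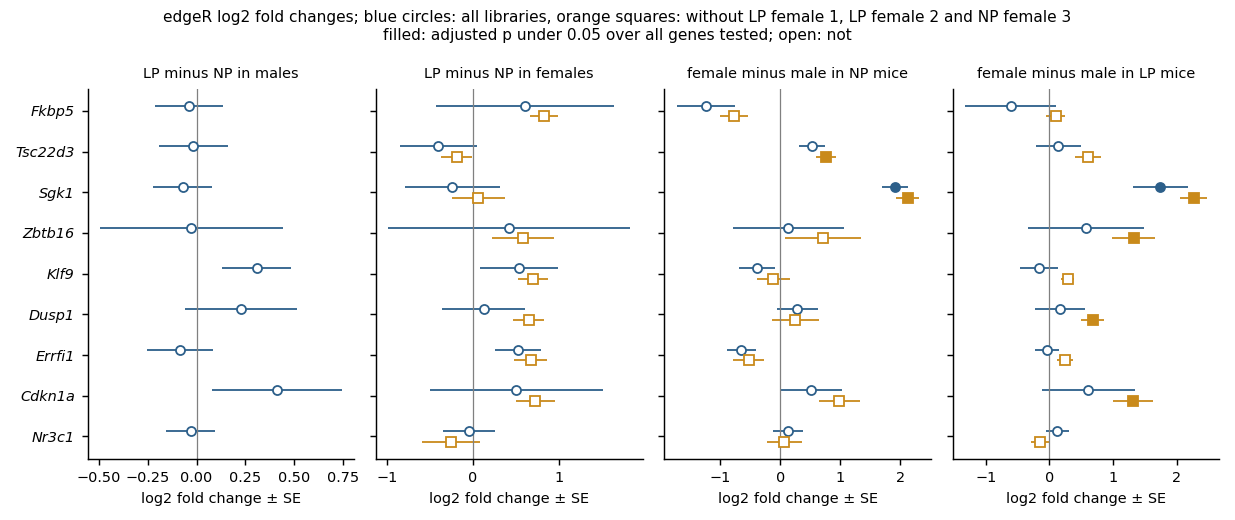
Log2 fold change ± SE of the 9 genes in 4 comparisons, with all libraries (blue circles) and without LP female 1, LP female 2, and NP female 3 (orange squares), filled where the adjusted p over all genes is under 0.05. *Sgk1* is filled in both comparisons of females with males, and no gene is filled for diet.

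Females and males were compared within each diet group. In NP mice, 1 of the 9 members was called, against 15.1% of 12952 genes in either direction and 6.89% higher in females. *Sgk1* was up-regulated in females, at 1.91 on the log2 scale (SE 0.22, adjusted p = 0.000626), and all 3 NP females lay above all 5 NP males. *Fkbp5* was lower in all 3 NP females than in any NP male, at -1.24 on the log2 scale (SE 0.49), but with an adjusted p of 0.112. Groups that do not overlap in either direction occurred for 22.8% of genes in this comparison. *Tsc22d3* (0.53, SE 0.21, adjusted p = 0.116) and *Errfi1* (-0.65, SE 0.24, adjusted p = 0.0932) likewise had an unadjusted p under 0.05, as 32.1% of genes did, and were not called. Without NP female 3, the values were -0.77 for *Fkbp5* (SE 0.23, adjusted p = 0.0550), 2.12 for *Sgk1* (SE 0.19, adjusted p = 0.000336), and 0.77 for *Tsc22d3* (SE 0.16, adjusted p = 0.0179), so that 2 members were called, against 14% of genes, and 7.09% higher in females.

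In LP mice, 1 of the 9 members was called, against 18.9% of 13228 genes in either direction and 8.01% higher in females. It was again *Sgk1*, at 1.74 on the log2 scale (SE 0.43, adjusted p = 0.0162), and no other member had an unadjusted p under 0.05, a level that 32.8% of genes passed. LP female 1 lay inside the male range for *Sgk1*, so the groups overlapped, as they did for all other members, while 15.3% of genes did not overlap. Without LP female 1 and LP female 2, 4 members were called, all higher in females, against 20.7% of genes in either direction and 9.8% in that one. They were *Sgk1* (2.26, SE 0.22, adjusted p = 8.27e-05), *Zbtb16* (1.32, SE 0.33, adjusted p = 0.0185), *Cdkn1a* (1.31, SE 0.32, adjusted p = 0.0163), and *Dusp1* (0.68, SE 0.18, adjusted p = 0.0249). With *Tsc22d3* and *Klf9*, 6 members had an unadjusted p under 0.05, against 34.6% of genes. The number of members called in LP mice thus rests on those 2 libraries, while *Sgk1* was called with and without them. The female difference of *Fkbp5* in LP mice was -0.61 (SE 0.72) with all libraries and 0.10 (SE 0.16) without the 2.

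Several genes that handle the hormone differed between the sexes, while the receptor was not called. *Nr3c1* had a female-to-male log2 fold change of 0.13 (SE 0.25) in NP mice and 0.12 (SE 0.18) in LP mice. *Hsd11b1*, whose enzyme regenerates active corticosterone, was lower in females, at -3.48 on the log2 scale in NP mice (SE 0.39, adjusted p = 0.000587) and -3.02 in LP mice (SE 0.49, adjusted p = 0.00167). *Hsd11b2*, whose enzyme inactivates it, was higher in females, at 0.89 (SE 0.23) and 0.78 (SE 0.15), as were *Nr3c2* (0.76 and 0.87) and *Abcb1a*, an efflux pump of the cell membrane (2.11 and 2.20). *Hsp90aa1* (-1.08 and -0.70) and *Hsp90ab1* (-0.77 and -0.64) were lower in females. In this list, 3 of 15 genes tested were higher and 4 lower in NP females, and 3 higher and 6 lower in LP females, against 15.1% and 18.9% of all genes called in either direction. Without NP female 3, 1 gene was higher (*Abcb1a*) and 4 lower in NP females, where *Hsd11b2* (0.75, SE 0.26, adjusted p = 0.0878) and *Nr3c2* (0.80, SE 0.25, adjusted p = 0.0643) were no longer called. Without LP female 1 and LP female 2, 3 were higher and 4 lower in LP females, and *Hsp90aa1* was no longer called (-0.48, SE 0.17, adjusted p = 0.0665).

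Of the other glucocorticoid-responsive genes, 8 of 31 were higher in NP females than in NP males and 0 lower, against 6.89% of all genes higher, with a median log2 fold change of 0.42 against 0.05 over all genes. *Fam107a* had the smallest p-value (1.65, SE 0.18, adjusted p = 0.000537), and the others were *Cebpd* (1.42), *Mt2* (1.36), *Cdkn1c* (1.25), *Txnip* (1.16), *Mt1* (1.03), *Per1* (0.97), and *Pdk4* (0.96). In LP mice, 4 of 29 were higher in females and 0 lower, against 8.01% of all genes higher. These were *Fam107a* (1.75), *Cdkn1c* (0.86), *Pck1* (0.84), and *Sesn1* (0.80). The median of that list was 0.22 in LP mice, against 0.03 over all genes. Without NP female 3, 10 of 31 were higher in NP females, and without LP female 1 and LP female 2, 16 of 31 were higher in LP females, with 0 lower in either and medians of 0.81 and 0.74.

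*Sgk1* was also read beside the sodium transport genes of the aldosterone-sensitive distal nephron, none of which is a member. Of 9 such genes, 5 were higher in NP females and 4 in LP females, and 0 were lower in either, against the 6.89% and 8.01% of all genes that were higher. They were the sodium channel subunits *Scnn1b* (0.99 in NP and 0.62 in LP mice) and *Scnn1g* (0.66 and 0.52), the thiazide-sensitive cotransporter *Slc12a3* (0.86 and 0.85), the potassium channel *Kcnj1* (0.70 and 0.75), and, in NP mice, *Scnn1a* (0.65). The estimates of *Sgk1*, 1.91 and 1.74, were above each of these, with no test of the difference between genes. Without the set-apart libraries, 5 of the 9 were higher in NP females and 9 of the 9 in LP females. Thick limb and distal tubule markers moved the same way, with 4 of 6 higher in NP females and 3 of 6 in LP females, or 4 and 6 without the set-apart libraries. Their summed level was 2814 to 4710 CPM in males, 3367 to 7916 CPM in LP females, and 3368 to 8107 CPM in NP females. The rise was not confined to distal genes. Podocyte markers were higher for 3 of 5 in NP females and 3 of 5 in LP females, with 0 lower. Without the set-apart libraries, 5 of 5 were higher in each diet. Of 5 endothelial markers, 0 were called in either diet. Proximal tubule markers summed to 33460.5 to 55163 CPM in males and 10620 to 26162 CPM in females, with *Slc22a6* and *Kap* of 6 lower in females of both diets. *Kap* alone held 21780 to 42580 CPM of the sum in males and 8060 to 18810 CPM in the females not set apart. The ranges of *Lrp2*, *Slc5a2*, and *Aqp1* overlapped between males and those females, while *Slc34a1* lay lower in those females. Without the set-apart libraries, 1 of the 6 markers was called lower in NP females, and 2 lower and 1 higher in LP females. The part of these cell types in the *Sgk1* difference was not tested.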

How the data were processed

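Kidney RNA of 18 mice was poly(A)-selected and sequenced as non-directional libraries. The authors removed adapters and low-quality reads, ran STAR (version not given in the sources used here) on GRCm39 and the GENCODE vM36 annotation, and deposited raw counts of reads per gene without normalization. The labels describe a whole kidney and the methods a piece of the left kidney. The counts taken without regard to strand were used. Reads not assigned to a gene, 28.6% to 36.1% of each library, were left out of totals and tests.

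Groups came from the labels. Diet was tested within each sex, sex within each diet, and their interaction over 4 groups, in edgeR 4.0.16 under R 4.3.3 (TMM scaling, quasi-likelihood test). A gene was tested if each library compared had 10 or more counts of it. Adjusted p-values are Benjamini-Hochberg values over all genes tested, a gene was called at an adjusted p under 0.05, and all tests were two-sided. SE is the log2 fold change divided by the square root of F. DESeq2 1.42.0, no filter, other scaling, 1 model of all groups, a block for replicate number, and leaving out libraries were alternatives. Leaving out the 3 libraries set apart by clustering from the comparisons of the sexes and the interaction was chosen after seeing the data. These 3 libraries came from clustering of the same data, so leaving them out for diet in females rests on the data too. The fits were tested on simulated data. SD and likeness used log2(CPM + 0.5).

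The members and gene lists were chosen with earlier results of these data known. Named genes are all members, list genes that were called or otherwise had the smallest p-values, and the genes most like the members; others named as low or high in single libraries were chosen after their values were seen. Positions and exon lengths are those of GENCODE vM39, a later release than the counts used, which holds 78168 of the 78239 genes listed. Promoter sequences are from RefSeq (GRCm38.p6). Replicate numbers did not pair the samples. Tables were handled with Python 3.11.15 and pandas 2.3.3.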

Additional observations from a re-analysis of the deposited data

Results flagged for a closer look

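In LP males, NP males, and LP females, the highest and lowest library of each member was compared with its nearest neighbor by Dixon's gap ratio. NP females, with 3 libraries, were too few for this. This screen is a description, since the members were chosen for differences between libraries. Of 27 sets of values, 1 for each member and group, 2 had a library past the limit of the screen, which marks about 1 in 20 sets by chance where members are not chosen in that way. *Zbtb16* in LP male 3 stood at 9.94 CPM, while the other LP males had 25.7 to 33.9 CPM. *Cdkn1a* in the same mouse stood at 7.54 CPM, while the other LP males had 21.2 to 26.6 CPM. LP male 3 was below the median of the 10 males for all 8 targets. LP female 1 and LP female 2 were not marked for any member. The screen could not mark them where both were low, since each was then the nearest neighbor of the other.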

How the results depend on the processing

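Of 531 log2 fold changes of members under an alternative, 462 kept their direction and side of the threshold, 57 changed sign without being called, 1 call was lost, and 11 were gained. Diet called 0 members under every alternative run in either sex. In NP mice, the count of members that differed between the sexes, 1, became 3 with no filter on low counts and 3 with DESeq2's Wald test (*Fkbp5* and *Errfi1* joined *Sgk1*), 2 without NP female 3, and 1 to 2 when single libraries were left out. Of all genes, the main test called 1954 of 12952, the test with no filter 2364 of 36538, and DESeq2 2958 of 12945. Without NP female 3, 1855 of 13229 genes were called, and 1112 to 2899 genes when any single library was left out. *Errfi1* was added without NP male 5 or NP female 2, and *Tsc22d3* without NP female 3. In LP mice, the count of 1 became 4 without LP female 1 and LP female 2 together, where 2775 of 13394 genes were called. It became 0 with the replicate block, where 1542 of 13228 genes were called and *Sgk1* had a log2 fold change of 1.47 and an adjusted p of 0.0653. The cause was not tested. *Sgk1* was called whichever single library was left out, at 1.64 to 2.12 in NP and 1.33 to 1.98 in LP mice.

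Same-numbered libraries did not deviate together (correlations of -0.30 to 0.33 for LP and NP males and -0.61 to -0.39 for LP and NP females), and 1 of 5 and 0 of 3 correlated best with their own number. With the replicate block, the diet difference changed sign for *Zbtb16* in males (0.28) and in females for *Fkbp5* (-1.89), *Zbtb16* (-3.46), *Dusp1* (-0.63), *Cdkn1a* (-1.82), and *Nr3c1* (0.17). The sex difference changed sign with the block for *Zbtb16* in NP mice (-0.42) and in LP mice for *Zbtb16* (-0.44), *Dusp1* (-0.035), and *Cdkn1a* (-0.032). Without the 3 set-apart libraries, the sign changed for diet in females for *Sgk1* (0.065), and for sex in LP mice for *Fkbp5* (0.10), *Klf9* (0.28), *Errfi1* (0.24), and *Nr3c1* (-0.16). The median of the 8 targets for diet in females was -1.14 with the block, against 0.47, and 0.094 to 0.76 when single libraries were left out. With no filter, *Nr3c1* changed sign in females (0.0064).

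When single libraries were left out, differences near 0 crossed it. For diet in males, *Fkbp5* ranged from -0.15 to 0.11, *Tsc22d3* from -0.15 to 0.10, *Sgk1* from -0.16 to 0.033, *Zbtb16* from -0.24 to 0.51, and *Nr3c1* from -0.10 to 0.027. For diet in females, *Sgk1* ranged from -0.63 to 0.051, *Zbtb16* from -0.14 to 1.35, *Dusp1* from -0.083 to 0.36, and *Nr3c1* from -0.31 to 0.26. For sex in NP mice, *Zbtb16* ranged from -0.79 to 0.71 and *Nr3c1* from -0.15 to 0.42. For sex in LP mice, *Tsc22d3* ranged from -0.047 to 0.34, *Klf9* from -0.33 to 0.026, *Dusp1* from -0.047 to 0.40, *Errfi1* from -0.14 to 0.084, and *Nr3c1* from -0.027 to 0.22. Of the 10 genes most like the mean of the targets, 3 were among the nearest 10 in females alone and 3 in males alone. At 11 to 22 reads in 3 libraries, the level of *Zbtb16* there is limited by counting.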
